A study of Mus musculus with 24 samples.

Results

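The 8 genes described here are CISH and SOCS1 to SOCS7, a family of inhibitors of cytokine signalling, in bone marrow-derived macrophages. They were chosen by name: a row of the deposited normalized gene table counted as a member when its symbol was CISH or SOCS followed by a number, which held for 8 of 18132 genes. The cells were grown in culture from the marrow of female Balb/c mice 8 to 10 weeks old and were then kept for 24 h with IL-4, with IFN-gamma, with isoproterenol, or in medium alone. IL-4 is a cytokine of type 2 immunity, IFN-gamma is a cytokine of type 1 immunity, and isoproterenol is a synthetic catecholamine that activates beta-adrenergic receptors. Each of the 4 groups held 6 Illumina MouseRef-8 v2.0 arrays, 2 from each of 3 experiments, which makes 24 arrays in all. The sources used here do not give concentrations, the number of animals or whether marrow was pooled. The labels name no transgene or deletion in any group, medium included.

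Proteins of this family share a central SH2 domain, which binds phosphorylated tyrosines, and a C-terminal SOCS box, which recruits elongins B and C and a cullin to form a ubiquitin ligase. Cytokine receptors activate Janus kinases (JAKs), and these phosphorylate STAT transcription factors. STATs then drive some genes of this family, so that the proteins of those genes limit the signal that induced them. In macrophages, SOCS1 is known as a brake on interferon-gamma signalling and SOCS3 as a brake on signalling through the gp130 receptor chain. IL-4 signals mainly through JAK1, JAK3 and STAT6, and IFN-gamma through JAK1 and JAK2, whereas beta-adrenergic receptors act through cyclic AMP.

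An array reports brightness, here as normalized intensity on a linear scale, and the brightness of different genes was not compared because each probe binds with its own efficiency. Intensities at or below 149 were treated as not above background. A total of 10111 genes exceeded this limit on at least 6 arrays and were tested. All 8 members were among them, although SOCS7 passed on exactly 6 arrays. Differences are given as log2 differences after a background adjustment, with the SE of a linear model in limma and a Benjamini-Hochberg adjusted p over the 10111 genes, and genes with an adjusted p under 0.05 were called. The background adjustment makes these folds larger than the plain ratios of intensities. The 2 arrays of an experiment were averaged, which leaves n = 3 experiments in each group. Nothing in the labels states that arrays or experiments came from separate cultures or animals. The p-values therefore measure the spread between these samples alone, and that spread may be technical. In bulk RNA, fewer cells of a type and less RNA per cell cannot be told apart.

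All 9 macrophage markers, among them Adgre1 (F4/80), Cd68 and Csf1r, were above the limit in every group. Between 9229 and 9306 genes were above it on each array. The second IFN-gamma array of experiment 1 stood apart: it correlated with its partner at r = 0.984 across genes, against at least 0.997 for the other array pairs, and the IFN-gamma differences of the members from medium are therefore given with and without it. Without it, 4396 genes were called in IFN-gamma minus medium, against 4362 with it. The arrays lay on 4 slides. Slides 1 and 2 held IL-4, IFN-gamma and medium arrays of experiments 1 and 2, so that the differences of these groups within experiments 1 and 2 are also differences within a slide. Fits on single arrays within slide 1 or 2 rest on 1 experiment with 2 arrays per group. Their p-values measure the spread between partner arrays alone, and slide 1 includes the IFN-gamma array that stood apart. For experiment 3 the medium arrays were on slide 3 and the activated ones on slide 4, and for experiment 2 the isoproterenol arrays were on slide 3. Fitting slide together with experiment as blocks gives no weight to the isoproterenol arrays of experiment 2 and the medium arrays of experiment 3.

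The members divided into those that IL-4 raised (CISH and SOCS2), those that IFN-gamma raised (SOCS1, SOCS3 and, by less, CISH), those that were lower with IFN-gamma (SOCS5 and SOCS6), and those that no comparison with medium called (SOCS4 and SOCS7). With IL-4, 2 of 8 members were higher and 0 lower than in medium, against 7.77% of all genes tested that were called in either direction. With IFN-gamma, 3 of 8 were higher, against 17.3% of all genes, and 2 of 8 were lower, against 25.8%. In both directions together IFN-gamma changed 5 of 8 members and 43.1% of all genes tested. With isoproterenol, 0 of 8 members were called by limma, against 1.28% of all genes, and 0 of 8 had an unadjusted p under 0.05. The median log2 difference of the members was 0.15 with IL-4, 0.07 with IFN-gamma and 0.04 with isoproterenol, against -0.01, -0.03 and -0.0010 over all genes.

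**Figure D1:**
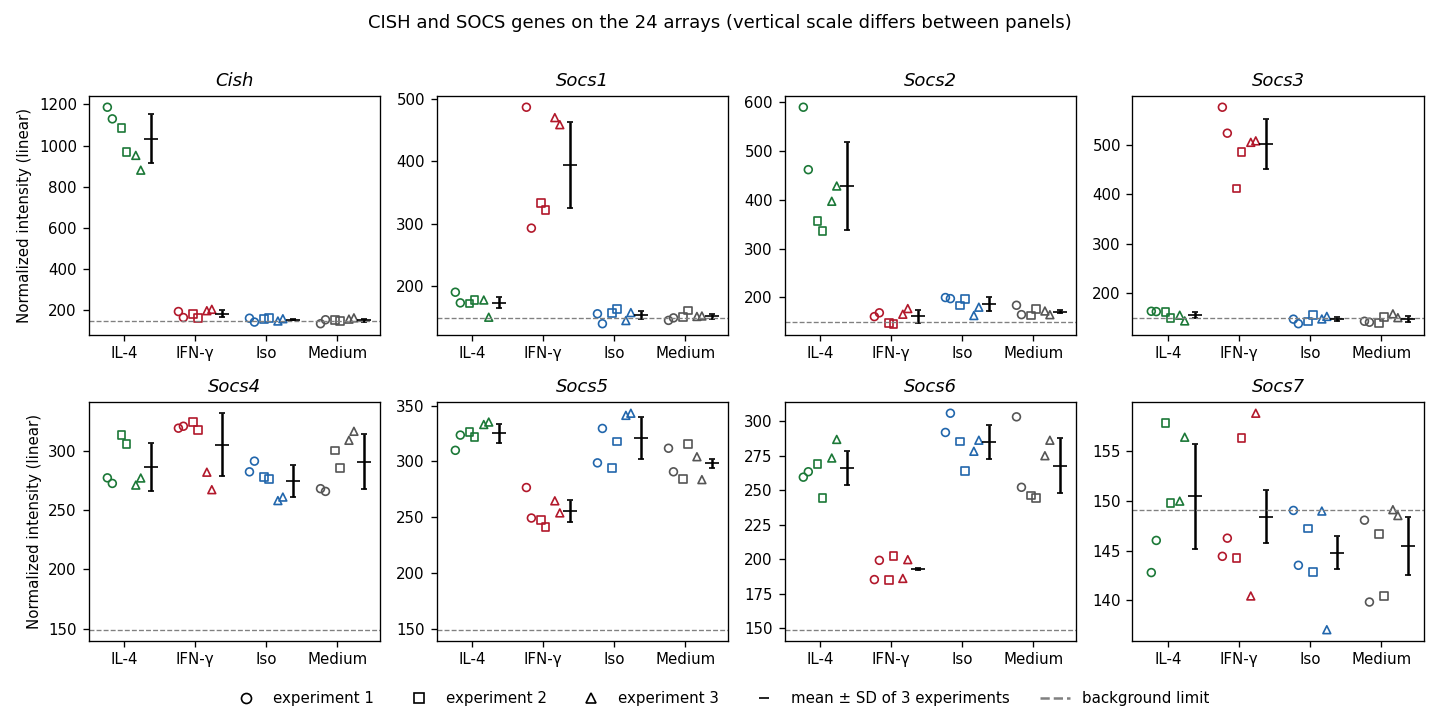
Normalized intensity of the 8 genes on each of the 24 arrays, on a linear vertical axis that differs between panels. Groups run from IL-4, IFN-γ and isoproterenol (Iso) to medium, symbols mark the experiment, black bars show the mean ± SD of 3 experiments, and the dashed line is the background limit of 149. Cish and Socs2 stand high with IL-4, Socs1 and Socs3 stand high with IFN-γ, and Socs5 and Socs6 are low with IFN-γ.

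CISH encodes CIS, which binds phosphorylated cytokine receptors of the STAT5-activating class, and it is the founding member of the family. In mouse the gene spans chr9:107296659-107302784 (GRCm38.p6). Its RefSeq promoter window is shown because it holds a pair of STAT motifs at the start of the transcript, on chr9:107296599-107296678, plus strand. The stretch covers positions -60 to 20 from the transcript start, where position 1 is the first transcribed base and there is no position 0. Capitals mark the STAT motif TTCNNNGAA, which equals its own reverse complement, so that a single search covers both strands.
Cish: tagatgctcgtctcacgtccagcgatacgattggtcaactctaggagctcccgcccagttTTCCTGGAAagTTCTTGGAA
The motifs lie at positions 1 to 9 and 12 to 20. Of 32851 RefSeq windows of 300 bases, 250 before and 50 after a transcript start, 8.30% held this motif at least 1 time and 0.457% held it at least 2 times, as CISH did. A match describes letters and is no measured binding site.

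With IL-4, Cish was the most strongly changed member. Its intensity ranged from 881 to 1186 with a median of 1028 over the 6 IL-4 arrays, from 161 to 205 with a median of 189 over the IFN-gamma arrays, from 143 to 162 with a median of 159 over the isoproterenol arrays, and from 135 to 164 with a median of 155 over the medium arrays. Every IL-4 array was brighter than every array of the other groups, whereas the remaining groups overlapped near the background limit, which 4 isoproterenol and 5 medium arrays exceeded. The means were 1034 ± 121 with IL-4, 185 ± 15.3 with IFN-gamma, 156 ± 3.94 with isoproterenol and 153 ± 7.90 in medium (SD, n = 3 experiments). IL-4 raised Cish by 3.53 ± 0.11 on the log2 scale (SE, 11.5-fold, adjusted p = 9.38e-09), the 8th largest increase among the 10111 genes. The plain ratio of intensities was 6.77. The differences in experiments 1, 2 and 3 were 3.85, 3.53 and 3.21.

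Cish was also higher with IFN-gamma, by 0.46 ± 0.11 (1.38-fold, adjusted p = 0.00681), although the IFN-gamma and medium arrays overlapped. The 3 experiments gave 0.54, 0.31 and 0.53, and the value was 0.52 without the array that stood apart. When the first array of every pair was left out, the difference was 0.29 and no longer passed the test (adjusted p = 0.174). Within slides 1 and 2, on single arrays, the difference did not pass either (adjusted p = 0.0653 and 0.0671), while the fit with slide as a block gave 0.52 (adjusted p = 0.00087). IL-4 exceeded IFN-gamma by 3.07 ± 0.11 (adjusted p = 2.63e-09). The order of Cish was IL-4, IFN-gamma, isoproterenol and medium, and the last neighbours in it did not differ beyond their spread.

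SOCS2 is best known as the inhibitor of growth hormone receptor signalling, another pathway that uses STAT5. Its intensity lay between 336 and 589.8 with a median of 413 on the IL-4 arrays, between 146 and 177 with a median of 163 on the IFN-gamma arrays, between 162 and 199 with a median of 189.9 on the isoproterenol arrays, and between 163 and 184 with a median of 168 on the medium arrays. The IL-4 arrays again stood above every other array, and the other groups overlapped. The means were 428 ± 90.7 with IL-4, 161 ± 12.5 with IFN-gamma, 186 ± 14.0 with isoproterenol and 170.4 ± 3.16 in medium. IL-4 raised Socs2 by 1.79 ± 0.13 (3.47-fold, adjusted p = 8.54e-06), the 16th largest increase. Experiments 1, 2 and 3 gave 2.11, 1.47 and 1.79. IFN-gamma gave -0.15 ± 0.13 (adjusted p = 0.377, not called) and -0.17 without the array that stood apart. On single arrays the IFN-gamma difference was -0.14 within slide 1 (adjusted p = 0.565). Within slide 2 it was -0.36 and passed (adjusted p = 0.014), but the IFN-gamma arrays there, at 147.9 and 145.7, were not above the background limit.

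Socs2 was the member with the largest isoproterenol difference in size, 0.21 with a 95% interval from -0.07 to 0.49 (adjusted p = 0.609). Isoproterenol exceeded IFN-gamma by 0.36 ± 0.13 for Socs2 (adjusted p = 0.0371), but the arrays overlapped, experiment 3 gave a difference near 0, and the comparison passed under only 11 of 19 alternative settings. Socs2 was above the background limit on 4 of 6 IFN-gamma arrays, so the size of this difference is uncertain. Both members that IL-4 raised were called under all 19 alternatives. The lowest and highest log2 differences over these were 2.75 and 4.25 for Cish and 1.31 and 2.24 for Socs2.

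SOCS1 and SOCS3 are the members with a kinase inhibitory region, through which they block JAKs directly. SOCS1 lies on chr16:10783808-10785536 and its promoter window held 0 matches of the STAT motif above. It did hold a pair of overlapping interferon regulatory factor (IRF) elements, searched as GAAA, any 2 bases and GAAA on both strands, a motif that was added after the sequence had been seen. Such an element was found at least 1 time in 3.44% of the 32851 windows and at least 2 times in 0.225%. The stretch shown is chr16:10785564-10785659, minus strand, positions -123 to -28, with the IRF elements in capitals.
Socs1: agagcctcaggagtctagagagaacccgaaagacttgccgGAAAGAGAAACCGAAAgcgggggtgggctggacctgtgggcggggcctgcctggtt
SOCS3 lies on chr11:117966079-117970336, and its window held 1 match of TTCNNNGAA, in capitals below. The stretch shown is chr11:117969472-117969560, minus strand, positions -194 to -106 from the transcript start that the RefSeq table gives. It lies inside the gene span, so that start is not the outer end of the span.
Socs3: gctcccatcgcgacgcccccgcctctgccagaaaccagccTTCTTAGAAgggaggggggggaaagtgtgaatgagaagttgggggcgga
Windows were in the table for 4 of 8 members, CISH, SOCS1, SOCS3 and SOCS4. The window of SOCS4 held 0 STAT motifs of this kind and 0 IRF elements. A STAT motif with 4 bases between TTC and GAA, the spacing that STAT6 is known to favour, was in 6.95% of all windows and in 0 of these 4. The full cyclic AMP response element TGACGTCA was in 1.79% of all windows and likewise in 0 of the 4, while its core TGACG, in 20.8% of all windows, was found in those of CISH and SOCS4.

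Socs1 was highest with IFN-gamma. Its intensity ranged from 150.4 to 190.4 with a median of 175 on the IL-4 arrays, from 293 to 486 with a median of 396 on the IFN-gamma arrays, from 140.03 to 164 with a median of 156 on the isoproterenol arrays, and from 145 to 161 with a median of 151 on the medium arrays. All IFN-gamma arrays lay above all others, and the lowest of them, at 293, was the array of experiment 1 that stood apart, whose partner had the highest value, 486. The means were 174 ± 8.92 with IL-4, 394 ± 68.4 with IFN-gamma, 153 ± 6.396 with isoproterenol and 152 ± 4.42 in medium. IFN-gamma raised Socs1 by 1.93 ± 0.13 (3.81-fold, adjusted p = 4.32e-07), with 1.97, 1.57 and 2.25 in experiments 1, 2 and 3. Without the array that stood apart the difference was 2.08 (adjusted p = 8.65e-07).

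With IL-4 the Socs1 difference was 0.33, with a 95% interval from 0.03 to 0.62, and it did not pass the test (adjusted p = 0.194). All 3 experiments had the same sign, at 0.52, 0.28 and 0.18, and the arrays overlapped. When only the IL-4 and medium arrays were fitted, the same difference passed (adjusted p = 0.0327), and this was the only 1 of 19 alternatives under which it did. Socs1 was lower with IL-4 than with IFN-gamma by a log2 difference of -1.60 ± 0.13 (adjusted p = 1.8e-06). In the order IFN-gamma, IL-4, isoproterenol and medium, the step from isoproterenol to IL-4 did not pass (adjusted p = 0.19).

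Socs3 showed the largest IFN-gamma difference of the family. On the IL-4 arrays its intensity ranged from 144 to 163 with a median of 159, on the IFN-gamma arrays from 412 to 576 with a median of 507, on the isoproterenol arrays from 138 to 156 with a median of 148, and on the medium arrays from 139 to 158 with a median of 147. The IFN-gamma arrays were separate from all others. The rest lay around the background limit, above it on 5 IL-4, 2 isoproterenol and 3 medium arrays, so that the size of a fold against them is uncertain. The means were 156 ± 6.71 with IL-4, 502 ± 50.9 with IFN-gamma, 148 ± 4.13 with isoproterenol and 147 ± 6.27 in medium. IFN-gamma raised Socs3 by 2.46 ± 0.10 (5.51-fold, adjusted p = 4.16e-09), with an intensity ratio of 3.40 and differences of 2.71, 2.31 and 2.36 in the 3 experiments. Without the array that stood apart the difference was 2.49 (adjusted p = 9.06e-09). The increase ranked 87th among all genes tested, and that of Socs1 ranked 130th. IL-4 gave 0.15 ± 0.10 for Socs3 (adjusted p = 0.464), and IL-4 was below IFN-gamma by a log2 difference of -2.31 ± 0.10 (adjusted p = 5.41e-09).

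**Figure D2:**
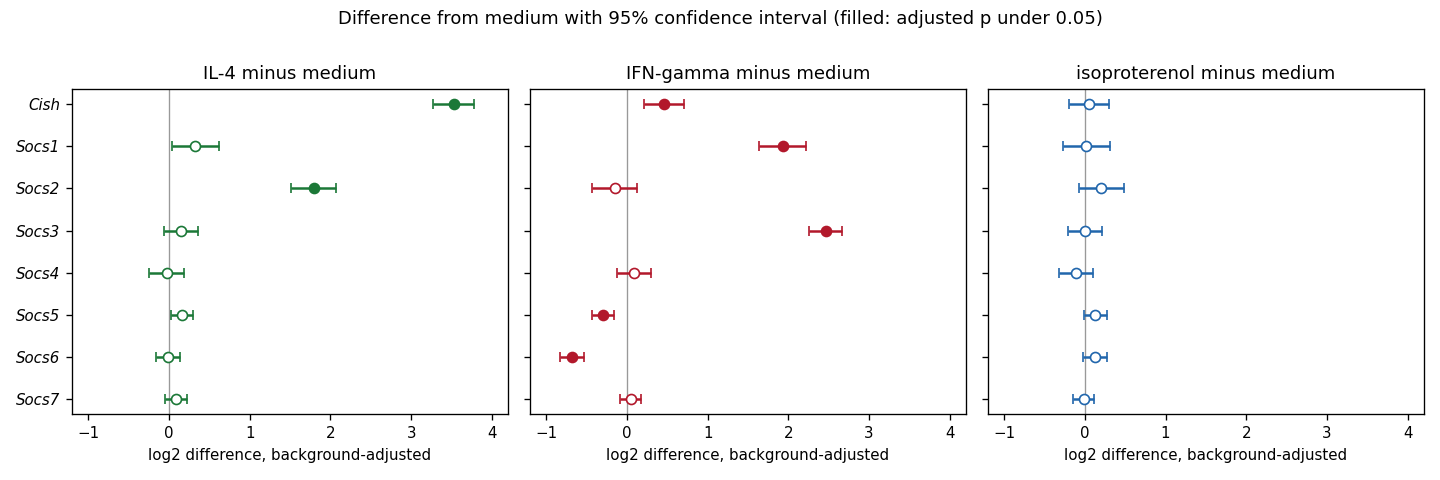
Log2 differences from medium of the 8 genes with 95% confidence intervals, after background adjustment, for IL-4, IFN-gamma and isoproterenol from left to right. Filled points had an adjusted p under 0.05. Filled points are Cish at 3.53 and Socs2 at 1.79 with IL-4, and Cish at 0.46, Socs1 at 1.93, Socs3 at 2.46, Socs5 at -0.30 and Socs6 at -0.68 with IFN-gamma.

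SOCS4 and SOCS5 have long N-terminal regions and are best known for their effect on epidermal growth factor receptor signalling. Socs5 was lower with IFN-gamma. Its intensity ranged from 309.9 to 335 with a median of 325 on the IL-4 arrays, from 241 to 277 with a median of 251 on the IFN-gamma arrays, from 294 to 343 with a median of 324 on the isoproterenol arrays, and from 284 to 316 with a median of 297 on the medium arrays. No IFN-gamma array reached any array of another group. The means were 325 ± 8.74 with IL-4, 255 ± 9.92 with IFN-gamma, 321 ± 19.0 with isoproterenol and 298 ± 3.89 in medium. The IFN-gamma difference from medium was -0.30 ± 0.06 (1.23-fold lower, adjusted p = 0.00217), with -0.26, -0.40 and -0.24 in the 3 experiments and -0.27 without the array that stood apart. On single arrays the difference did not pass within slide 1 (adjusted p = 0.137) but did within slide 2 (adjusted p = 0.00802). IL-4 exceeded IFN-gamma by 0.46 ± 0.06 for Socs5 (adjusted p = 9.94e-05). With IL-4 the difference from medium was 0.16 (adjusted p = 0.174).

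Socs4 overlapped between all groups. Its means were 286 ± 20.4 with IL-4, 305 ± 26.5 with IFN-gamma, 274 ± 13.8 with isoproterenol and 291 ± 22.9 in medium. The differences from medium were -0.03 with IL-4, 0.09 with IFN-gamma and -0.11 with isoproterenol, and the smallest adjusted p of these was 0.519. The IFN-gamma differences within experiments 1, 2 and 3 were 0.34, 0.17 and -0.25, and without the array that stood apart the difference was 0.087. In the fit with slide as a block the IFN-gamma difference was 0.23 and passed the test (adjusted p = 0.000672). That fit gives no weight to the medium arrays of experiment 3. On single arrays the IFN-gamma difference passed within slide 1 (adjusted p = 0.0197) but not within slide 2 (adjusted p = 0.141).

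SOCS6 and SOCS7 bind components of insulin and receptor tyrosine kinase signalling. Socs6 fell with IFN-gamma. Its intensity ranged from 244 to 287 with a median of 266 on the IL-4 arrays, from 185 to 203 with a median of 193 on the IFN-gamma arrays, from 264 to 306 with a median of 286 on the isoproterenol arrays, and from 244 to 303 with a median of 264 on the medium arrays. The IFN-gamma arrays lay below all others, and the other groups overlapped. The means were 266 ± 12.4 with IL-4, 193 ± 0.82 with IFN-gamma, 285 ± 12.4 with isoproterenol and 268 ± 19.7 in medium. The IFN-gamma difference from medium was -0.68 ± 0.07 (1.60-fold lower, adjusted p = 9.56e-06), with -0.75, -0.50 and -0.78 in the 3 experiments and -0.70 without the array that stood apart. IL-4 exceeded IFN-gamma by 0.67 ± 0.07 (adjusted p = 9.55e-06) and isoproterenol exceeded IFN-gamma by 0.80 ± 0.07 (adjusted p = 2.01e-06). The IL-4 difference from medium was -0.01 (adjusted p = 0.969).

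Socs7 was above the background limit on 4 IL-4 arrays, 2 IFN-gamma arrays, 0 isoproterenol arrays and 0 medium arrays. Its means were 150.5 ± 5.25 with IL-4, 148 ± 2.68 with IFN-gamma, 145 ± 1.647 with isoproterenol and 145 ± 2.93 in medium. In the isoproterenol and medium groups it was not above background, so differences against them are not read as folds, and no comparison of it passed the test. Without the IFN-gamma array that stood apart, its IFN-gamma difference from medium was 0.044 (adjusted p = 0.609).

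**Figure D3:**
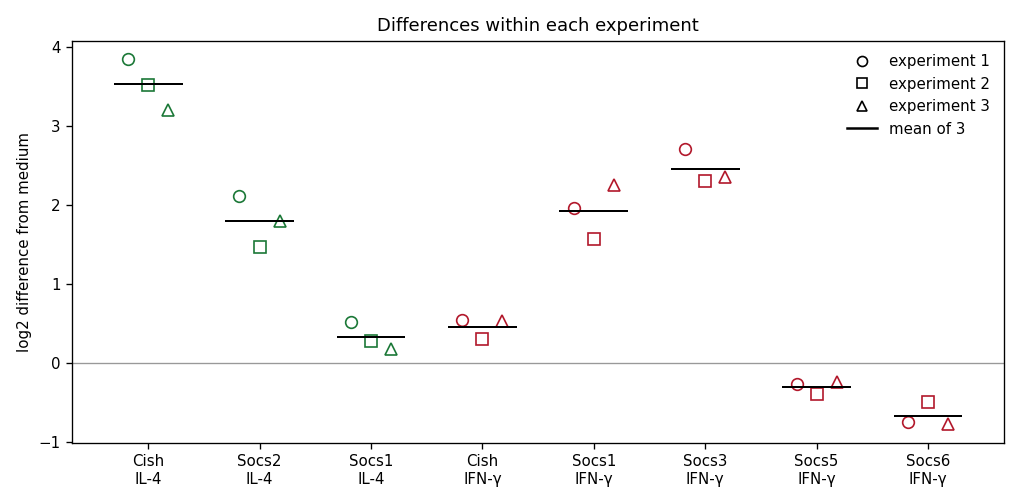
Log2 difference from medium within each experiment (symbols) and their mean (line) for the members that passed the test with IL-4 or IFN-γ, and for Socs1 with IL-4, which did not. Every symbol lies on the same side of 0 as its mean, from 3.85 for Cish with IL-4 in experiment 1 to -0.78 for Socs6 with IFN-γ in experiment 3.

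Set against each other, IL-4 and IFN-gamma differed for 6 of 8 members, 4 higher and 2 lower with IL-4, while 43.9% of all genes tested were called in this comparison. Cish, Socs2, Socs5 and Socs6 were higher with IL-4 than with IFN-gamma, and Socs1 and Socs3 were lower. For Socs4 and Socs7 the differences were -0.12 and 0.04 (adjusted p = 0.369 and 0.664). That of Socs4 passed in the fit with slide as a block (adjusted p = 0.0286) and, on single arrays, within slide 1 (adjusted p = 0.0424).

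Isoproterenol left every member within 0.21 of medium on the log2 scale, and none passed the test. The 95% intervals of the differences reached from -0.20 to 0.31 for Cish, from -0.27 to 0.31 for Socs1, from -0.20 to 0.21 for Socs3, from -0.32 to 0.11 for Socs4, from -0.0044 to 0.27 for Socs5 and from -0.02 to 0.28 for Socs6. A p that misses the threshold does not show that isoproterenol and medium acted alike. For Socs2, Socs4, Socs5 and Socs6 the intervals bound the sizes these arrays allow. Cish, Socs1 and Socs3 lay near the background limit in both groups. They exceeded it on 4, 4 and 2 isoproterenol arrays and on 5, 5 and 3 medium arrays. For these genes the intervals bound the measured brightness and not a change in RNA below that limit. Against IL-4, isoproterenol was lower for 2 of 8 members, Cish at -3.48 ± 0.11 and Socs2 at -1.59 ± 0.13, and 11.0% of all genes tested were called. Against IFN-gamma, isoproterenol was lower for Cish, Socs1 and Socs3 and higher for Socs2, Socs5 and Socs6, which is 6 of 8 members against 45.9% of all genes. These comparisons share their IL-4, IFN-gamma and medium arrays and are not independent of those above.

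Across the 12 experiment averages, Cish and Socs2 followed each other at a Pearson r of 0.94 and Socs1 and Socs3 at 0.98, while Socs6 ran opposite to Socs1 and to Socs3 at -0.96 each and with Socs5 at 0.88. These values are descriptions: the 12 averages fall into 4 groups, so that r mostly reflects differences between group means. Cish and Socs1 had an r of -0.04. The 5 tested genes closest to Cish were Rnase2a (0.989, named EAR11 on the array), Retnla (0.989), Ear10 (0.983), Chil3 (0.982) and Arg1 (0.981), which include the arginase and secreted lectin-like and resistin-like proteins known from alternatively activated macrophages. Those closest to Socs2 were Nfe2 (0.989), Fchsd2 (0.988), EAR12 (0.986), Il4i1 (0.984) and Chil3 (0.9799). Those closest to Socs1 were Tppp3 (0.995), Serpina3h (0.991), Kynu (0.990), Cst7 (0.990) and Cd40 (0.990). Those closest to Socs3 were LOC100047856 (0.997), Gbp3 (0.995), Serpina3g (0.995), Itpka (0.995) and Wars (0.995). Chil3 was the only gene among the nearest 5 of more than 1 member.

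Other genes of the signalling chain were read from the same fit, and their counts stand beside the shares of all genes tested, which were 7.77% called with IL-4, 43.1% with IFN-gamma (17.3% higher and 25.8% lower) and 1.28% with isoproterenol. Of 17 tested cytokine receptor genes, IL-4 raised 4 and lowered 1, IFN-gamma raised 5 and lowered 4, and isoproterenol changed 0, and the 9 called with IFN-gamma are a share near that of all genes. Among the receptors that passed with IL-4, the largest changes were in Il13ra1, a chain of the receptor for IL-4 and IL-13, at -0.75, in Csf2rb, the shared beta chain of the GM-CSF receptor, at 0.61, and in Csf1r, the receptor for the macrophage growth factor, at 0.40. Among those that passed with IFN-gamma they were in Il2rg, the common gamma chain, at 2.24, in Il7r at -1.37 and in Il10ra at 1.22. Of the 4 JAK genes, Jak2 rose with IL-4, by 0.65 ± 0.08 (adjusted p = 0.000288), and with IFN-gamma by 0.96 ± 0.08. Jak3 and Tyk2 rose with IFN-gamma by 0.94 and 0.83, and Jak1 at 0.10 with IL-4 and -0.10 with IFN-gamma did not pass.

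Among STAT genes, IFN-gamma raised Stat2 by 2.42 ± 0.11 (adjusted p = 1.59e-08) and Stat3 by 1.31 ± 0.14 (adjusted p = 1.25e-05). Their differences from medium were -0.12 and 0.16 with IL-4 and -0.04 and 0.26 with isoproterenol, none of which passed. Stat6, the main STAT of IL-4 signalling, differed from medium by -0.03 with IL-4 and -0.12 with IFN-gamma, and Stat5a by 0.15 and -0.10, none of which passed. Stat5b was not tested because too few arrays exceeded the background limit.

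Among the SOCS-box partners, the elongins Elob and Eloc, the cullins Cul2 and Cul5 and Rbx1, IL-4 and isoproterenol changed 0 of 5. IFN-gamma raised 2 of the 5, Eloc by 0.23 and Cul2 by 0.26, and lowered 0. The 2 called are a share near the 43.1% of all genes called in either direction, while 17.3% of all genes were higher. Of the 6 SPSB and WSB genes, whose proteins carry a SOCS box without the SH2 domain, IFN-gamma lowered 4 and raised 0, against 25.8% of all genes lowered. Spsb4 fell by 1.04, Wsb2 fell by 1.00 and Spsb2 fell by 0.56 on the log2 scale, and IL-4 and isoproterenol changed 0 of 6. Of 12 other inhibitors of the pathway, IFN-gamma raised 4 and lowered 1, against 17.3% of all genes higher and 25.8% lower (43.1% together). Among them, Usp18, which restrains type I interferon receptor signalling, rose by 3.40 ± 0.11, the phosphatase gene Ptpn6 by 1.16 ± 0.07 and Ptpn1 by 0.43 ± 0.07. IL-4 raised 1 of the 12 and lowered 2, with Cblb at 0.63, Ptpn6 at -0.33 and Pias3 at -0.22.

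The lists of genes known as STAT targets were read from the same fit. STAT activity was not measured, and the lists were chosen with earlier results of these data known. Of 11 STAT6 targets, 10 rose and 0 fell with IL-4, against 7.77% of all genes tested that were called in either direction. Retnla, at an adjusted p of 2.8e-11, was at least 74.1-fold higher and Arg1 at least 16.6-fold higher, both as ratios of normalized intensities to the background limit, which no medium array exceeded, and the log2 difference of Il4i1 was 4.02 ± 0.19. With IFN-gamma 2 of the 11 rose and 4 fell, and with isoproterenol 1 rose, Ccl24 by 1.17 ± 0.12. Of all genes tested, 17.3% were higher and 25.8% lower with IFN-gamma, and 1.28% were called with isoproterenol.

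Of 8 other genes known as STAT5 targets, 0 rose and 1 fell with IL-4 (Bcl2l1 at -0.36), while 3 rose and 1 fell with IFN-gamma. The 3 were Ccnd2 at 0.85, Id1 at 0.79 and Ccnd1 at 0.74, of which Ccnd2 was above the limit on 1 medium array. Of 7 tested STAT3 targets, 1 rose and 1 fell with IL-4, and 2 rose and 1 fell with IFN-gamma, Hif1a at 1.49, Bcl3 at 0.75 and Mcl1 at -0.25. In both lists the share called with IFN-gamma was near the 43.1% of all genes tested. The shares over all genes were 7.77% with IL-4 and 1.28% with isoproterenol. Isoproterenol raised 1 of each list, Osm at 0.56 among the STAT5 targets and Il1rn at 0.77 among the STAT3 targets. With IL-4, Ccnd2 was above the limit on 0 arrays. Cish and Socs2 were not counted in the STAT5 list, and the part of any STAT in their IL-4 increases was not tested. The lists are short and hold genes with several known inputs, so these counts are descriptions.

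**Figure D4:**
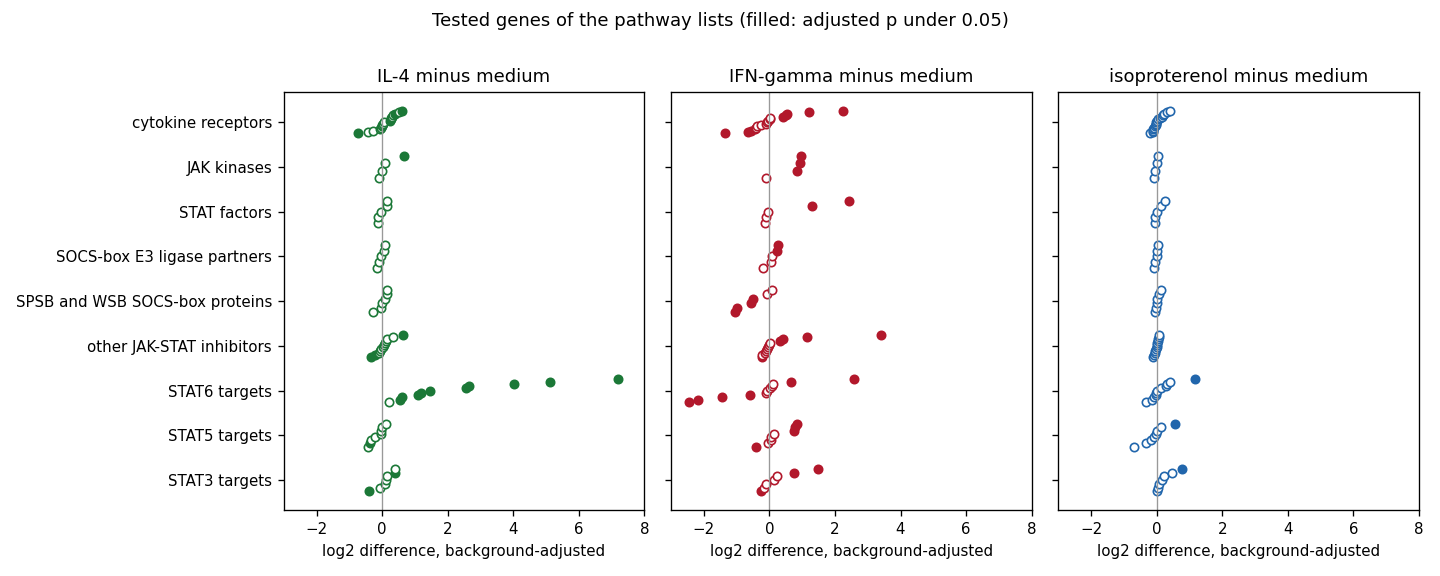
Log2 differences from medium of the tested genes reported here in 9 lists of the JAK-STAT pathway, after background adjustment, for IL-4, IFN-gamma and isoproterenol from left to right. Each point is a gene, filled where its adjusted p was under 0.05. With IL-4 the filled points to the right are mostly STAT6 targets, up to Retnla, and with IFN-gamma the filled point farthest to the right is Usp18 at 3.40, among the other inhibitors.

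Markers of other cell types were read from the same arrays. The summed intensity of 6 neutrophil and precursor markers was 4056 to 5329 on the IFN-gamma arrays and 2013 to 2832 on the medium arrays. This sum rests mostly on S100a8, with means of 3857 with IFN-gamma and 1475 in medium. S100a8, a calcium-binding protein abundant in neutrophils and inducible in macrophages, rose by 1.45 ± 0.11, whereas Mpo fell by 0.60, Elane fell by 0.45 and S100a9 fell by 0.34 on the log2 scale. Mpo and Elane exceeded the limit on 4 and 3 IFN-gamma arrays, so the sizes of their differences are uncertain. The part of these neutrophil and precursor markers in the IFN-gamma differences of Cish, Socs1, Socs3, Socs5 and Socs6 was not tested. With IL-4 the sum was 1782 to 2136, and with isoproterenol 2172 to 2835. The 9 macrophage markers summed to 65106 to 70296 with IL-4, 59748 to 65036 with IFN-gamma, 73089 to 76509 with isoproterenol and 70550 to 74235 in medium. These sums rest mostly on Lyz2 and Cd68, with means of 34479 and 22030.5 in medium. IFN-gamma raised 2 of the 9 and lowered 4, with Fcgr1 at 2.48, Mertk at 1.49 and Cd14 at -0.99. IL-4 raised 3 and lowered 2, with Cd14 at -1.25, Fcgr1 at -0.99 and Csf1r at 0.40, and isoproterenol raised 1. Of all genes tested, 43.1% were called with IFN-gamma, 7.77% with IL-4 and 1.28% with isoproterenol. Fibroblast markers were above the limit for at most 1 of 5 genes in any group, and Col3a1, Pdgfra and Dcn were above it on 0 arrays. Of 7 T and NK cell markers, 6 were above the limit on at least 1 IL-4 array, 3 on an IFN-gamma array, 2 on an isoproterenol array and 2 on a medium array, and neither of the 2 tested, Cd3d and Klrb1c, was called. Their mean intensities with IL-4 were below the limit for every marker of this list except Klrb1c, at 153. The 7 dendritic cell markers summed to 1086 to 1139.5 with IL-4, 1006 to 1063 with IFN-gamma, 1001 to 1070.4 with isoproterenol and 1033 to 1058 in medium. Of these, Itgax, which macrophages also express, was higher with IL-4 by 0.62 ± 0.09 (adjusted p = 0.00116) and lower with IFN-gamma at -0.40 ± 0.09. Clec9a, above the limit on 4 IFN-gamma arrays and 1 medium array, was higher with IFN-gamma by 0.26 ± 0.08, while Cd209a was above the limit on 0 arrays. The B cell marker Cd79b was lower with IFN-gamma at -0.24 ± 0.07 (adjusted p = 0.0206), and Ms4a1 was above the limit on 0 arrays. The part of these markers in the differences of the members was not tested.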

How the data were processed

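RNA of 24 macrophage samples was hybridised to Illumina bead arrays, which were read with GenomeStudio per the submitters' processing notes. The sources used here give neither its version nor its background steps. The authors deposited intensities on a linear scale, as a non-normalized table of 25697 probes and a normalized table of 18132 genes, whose nearly equal array distributions show quantile normalization. The normalized intensities were used: for 6 of 8 members they followed a single probe within an SD of 0.01 (log2), and for SOCS6 and SOCS7 they followed none.

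The mode of the intensities was 137.3 and the background limit was the mode plus 1.645 SD, 149.1. Intensities were background-corrected with normexp (offset 50), taken to log2, averaged over the 2 arrays of an experiment, and fitted with limma 3.58.1 in R 4.3.3 on group and experiment, all 4 groups together, with empirical Bayes moderation and two-sided tests. The fit was checked on simulated data. The shared experiment number comes from the labels: 16 of 18 correlations of deviations between groups of the same experiment exceeded 0.1 (range 0.03 to 0.78). Raw array medians lay between 134.6 and 172.2, and the number of arrays limits the precision.

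The members and gene lists were chosen with earlier results of these data known. All members are named, and of each list up to 3 called genes with the largest differences per activator, with JAK, STAT and SOCS-box partner genes also allowed. The lists hold 163 genes, 158 of them in the table (6 through a synonym) and 121 tested. Some listed genes are not reported here. Promoter windows are from RefSeq, GRCm38.p6, and covered 27025 genes. Alternatives were tried for the dim-gene filter, the background step, the probe table, the blocks, the groups fitted, the moderation and left-out experiments or arrays.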

Additional observations from a re-analysis of the deposited data

How the results depend on the processing

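Of the results on single members, 714 kept their direction and their side of the threshold under the alternatives, 19 reversed, 3 passed the test anew and 11 no longer passed, 8 of them Socs2 and 2 of them Cish in isoproterenol minus IFN-gamma and 1 Cish in IFN-gamma minus medium. All 19 that reversed were differences that had not passed the test. Under every alternative run (19, or 18 for Socs6) the IL-4 increases of Cish and Socs2 and the IFN-gamma differences of Socs1, Socs3, Socs5 and Socs6 passed. The fits of single arrays within slide 1 or 2, each of 1 experiment with 2 arrays per group, were not among these alternatives. There, the IFN-gamma difference of Socs5 from medium did not pass within slide 1. That of Socs4 passed within slide 1 and that of Socs2 within slide 2, where the Socs2 values with IFN-gamma were not above the background limit.

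With slide and experiment as blocks the log2 differences from medium were 0.11 for Socs4 and 0.028 for Socs6 with IL-4, 0.23 for Socs4 with IFN-gamma, which then passed, and -0.12 for Socs1, 0.095 for Socs4 and 0.028 for Socs7 with isoproterenol, the last between groups at background. The difference of Socs4 in IL-4 minus IFN-gamma, -0.12, then passed too (adjusted p = 0.0286). With only the 2 groups compared in the fit, Socs1 with IL-4 passed at 0.33. In the fit with slide, the medium arrays of experiment 3 and the isoproterenol arrays of experiment 2 have no weight. The Socs4 difference from medium within experiment 3, -0.25 with IFN-gamma, therefore does not enter that fit. No further cause of these shifts was tested. Leaving out an experiment or an array gave ranges of -0.057 to 0.041 for Socs6 and -0.098 to 0.080 for Socs4 with IL-4; of 0.29 to 0.63 for Cish, -0.038 to 0.26 for Socs4 and -0.094 to 0.19 for Socs7 with IFN-gamma; and of -0.025 to 0.14 for Cish, -0.017 to 0.057 for Socs1, -0.030 to 0.041 for Socs3, -0.23 to 0.016 for Socs4 and -0.041 to 0.037 for Socs7 with isoproterenol. Socs7 in IL-4 minus IFN-gamma ranged from -0.052 to 0.13.

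Counts over all genes moved more. For IL-4 minus medium, 786 genes became 1300 with single arrays and experiment and replicate block, 447 with no experiment term, 515 with no moderation, and 358 to 679 on leaving out an experiment or array. For isoproterenol minus medium, 129 became 364 with single arrays and experiment and replicate block, 285 with the array pair as a random block, 36 with no experiment term, 83 with an offset of 16, 196 with only the 2 groups, 28 with no moderation, and 12 to 118 on leaving out. For isoproterenol minus IL-4, 1115 became 1722 with single arrays and experiment and replicate block, 660 with no experiment term and 519 to 980 on leaving out. The fit of single arrays with the replicate block changed no call of a member; the replicate number paired arrays across groups with a correlation over 0.1 in 5 of 18 comparisons, so arrays were not treated as paired by it. Signal over background limits the size of a fold where values lay near the limit, as for Socs7 in all groups. The same held for Cish, Socs1 and Socs3 in medium and with isoproterenol, and for Socs2 with IFN-gamma.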

Other observations

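The genes of secreted ligands that act through JAK-STAT receptors hold 6 that were tested. Of these 6, IFN-gamma raised 1, Il27 by 2.22 ± 0.11, and lowered 2, Csf1, which encodes the macrophage growth factor, at -1.45 ± 0.11 and Osm, which encodes oncostatin M, at -0.40 ± 0.08. Isoproterenol raised 1 of the 6, Osm by 0.56 ± 0.08 (limma, adjusted p = 0.00724), and IL-4 changed 0. Of all genes tested, 43.1% were called with IFN-gamma, 1.28% with isoproterenol and 7.77% with IL-4. Il27 was above the background limit on 2 of 6 medium arrays, so the size of its difference is uncertain. Il6, Il4 and Ifng were not tested because too few arrays exceeded the limit.

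Early response genes of cyclic AMP signalling were a list in which isoproterenol changed more members. Isoproterenol raised 4 of 7 tested genes, Fos by 0.91 ± 0.09, Dusp1 by 0.76 ± 0.08, Cebpb by 0.38 ± 0.07 and Crem by 0.33 ± 0.07, and lowered 0. IFN-gamma raised 5 of the 7, among them Crem by 0.90, Fos by 0.81 and Cebpb by 0.42, and IL-4 changed 0. Of all genes tested, 1.28% were called with isoproterenol, 43.1% with IFN-gamma (17.3% higher) and 7.77% with IL-4. The median log2 difference of the list was 0.33 with isoproterenol and 0.41 with IFN-gamma, against -0.0010 and -0.03 over all genes.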
